A study of Homo sapiens with 18 samples.

Results

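ISG15 conjugation in OVCAR3 cells was followed through 6 genes: ISG15, which encodes the modifier, UBA7, UBE2L6, HERC5 and HERC6, which encode the enzymes that attach it or their relatives, and USP18, which encodes the protease that removes it. They were found by symbol in both count tables, where all 6 were present among 55765 distinct gene symbols, and all 6 passed the filter on low counts, which left 18012 genes of the first series and 18732 of the second. The genes were chosen by name, with earlier results of these libraries known, and on the rise of interferon-stimulated genes with BDNF IgA and TSPAN7 IgA, so the values of those antibodies against untreated cells are given as a description with no test.

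OVCAR3 is an established cell line from a human ovarian carcinoma of the high-grade serous type that grows attached, and all libraries come from this 1 line, grown in RPMI medium with 2% FBS. Cells received antibody at 0.5 µg/ml for 24 h or none, although a further description of these treatments has 8 h. In the first series the groups were human IgA and IgG of no particular specificity and untreated cells, and in the second series they were IgA against the neurotrophin BDNF, IgA against the tetraspanin TSPAN7 and untreated cells, with 3 libraries in each group and 18 in all. IgA is the antibody class that the polymeric immunoglobulin receptor carries across epithelial cells, and the comparisons asked how tumour cells respond to it. The second series held neither IgG nor non-specific IgA, so binding of the antigen and exposure to IgA cannot be told apart there. Per the methods, the specific IgA was purified from the medium of immortalised tumour B cells, and its preparation cannot be told apart from these either. The libraries of the first series are described as separate experiments. For those of the second, the paper has only a general statement that its experiments used biological replicates or independent experiments. Separate cultures are not named for them, so p-values there measure a spread that may be technical.

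ISG15 is a small protein made of a pair of ubiquitin-like domains, and like ubiquitin it is attached to lysines of other proteins by a chain of enzymes. UBA7 is the E1 that activates it, UBE2L6 is the E2 that carries it, and HERC5 is the main E3 ligase in human cells, acting at ribosomes on newly made proteins. HERC6 is the close relative of HERC5 that acts as the ligase in mice. USP18 cleaves ISG15 from its targets and, apart from that activity, binds the type I interferon receptor subunit IFNAR2 and dampens its signal. All of these genes are known targets of type I interferon, which acts on a promoter sequence called the interferon-stimulated response element (ISRE).

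First-series libraries held 27920733 to 42371474 counts, and those of the second held 39254350 to 47381836. IgA replicate 3 stood apart: the mitochondrial genome supplied 19.1% of its counts, against 5.75% to 8.32% in the other 8 libraries of its series. Fold changes that rest on this library are also given without it. The first series was also the noisier, with a common dispersion of 0.0307 against 0.00303, and its fold changes have the wider intervals. The epithelial and Müllerian markers PAX8, WT1, MUC16, EPCAM, KRT8, KRT18, CDH1 and MSLN each had at least 692 counts in every library, while the 5 leukocyte markers matched (PTPRC, CD3E, CD79A, LYZ and MZB1) had at most 56 and CD3E at most 2. Of the fibroblast and endothelial markers matched, COL3A1 and PDGFRB had at most 7 counts, VWF at most 57 and COL1A1 between 514 and 1065, and JCHAIN and PECAM1 were not matched by symbol. In bulk RNA, fewer cells that express a gene and less RNA in each cell cannot be told apart.

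On GRCh37, with GENCODE positions, ISG15 lies on the forward strand of chromosome 1 (936518 to 949920), UBA7 on the reverse strand of chromosome 3 (49842642 to 49851386), UBE2L6 on the reverse strand of chromosome 11 (57319129 to 57335757) and USP18 on the forward strand of chromosome 22 (18632885 to 18660164). HERC6 (89299891 to 89364249) and HERC5 (89378270 to 89427314) are neighbours on the forward strand of chromosome 4, with 14020 bases between them. ISG15 overlaps a lncRNA and a processed pseudogene on the opposite strand, and since use of strand in the counting is not given, reads of these could be shared. UBE2L6, HERC6 and USP18 overlap no other gene, and UBA7 and HERC5 overlap only 1 miRNA gene each.

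The promoters are shown because the ISRE is the sequence through which interferon acts on these genes. RefSeq windows of GRCh38.p14 from 250 bases before to 50 bases after the start site were given for 4 of the 6 members. A core ISRE was searched as GAAANNGAAA on either strand (TTTCNNTTTC when read on the other), and overlapping matches were allowed. It was found in 1255 of 35116 windows, or 3.57%, and in the windows of ISG15 (2 overlapping matches, whose first bases are at -113 and -107 from the start) and HERC5 (3 matches at -125, -119 and -74, of which the first pair overlap, all on the reverse strand). The windows of HERC6 and UBE2L6 held none, which says only that these letters are absent there. The core of the gamma-activated sequence, TTCNNNGAA, was in 7.66% of all windows and in none of the windows of these 4 genes. The 250 bases before the start are given 5′ to 3′ for ISG15 (chr1:1013247-1013496, forward strand), HERC5 (chr4:88456869-88457118, forward strand) and, as the neighbour of HERC5 with no match, HERC6 (chr4:88378602-88378851, forward strand), with the ISRE matches in capitals.
ISG15: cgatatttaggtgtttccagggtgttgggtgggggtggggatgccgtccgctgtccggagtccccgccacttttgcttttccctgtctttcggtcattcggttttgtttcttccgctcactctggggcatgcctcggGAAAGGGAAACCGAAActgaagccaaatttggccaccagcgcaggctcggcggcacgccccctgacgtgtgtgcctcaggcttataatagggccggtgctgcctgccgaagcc
HERC5: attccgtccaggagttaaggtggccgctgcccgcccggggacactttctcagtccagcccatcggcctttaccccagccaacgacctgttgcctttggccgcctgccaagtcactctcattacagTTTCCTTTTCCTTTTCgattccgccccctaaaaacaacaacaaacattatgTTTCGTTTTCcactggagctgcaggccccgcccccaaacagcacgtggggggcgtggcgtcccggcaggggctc
HERC6: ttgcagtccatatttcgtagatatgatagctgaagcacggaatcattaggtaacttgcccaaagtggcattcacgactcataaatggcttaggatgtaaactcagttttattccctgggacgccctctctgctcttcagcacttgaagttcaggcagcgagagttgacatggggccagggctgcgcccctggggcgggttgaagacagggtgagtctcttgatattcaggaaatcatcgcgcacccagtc

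With BDNF IgA and TSPAN7 IgA all 6 genes were above untreated cells in every library. With non-specific IgA HERC5 rose and UBA7 fell, and the other 4 genes did not pass the test. Normalised counts (counts brought to a common effective library size within a series) can be compared inside a series but not between the series. The median log2 fold change of the 6 genes was 0.75 with BDNF IgA and 0.70 with TSPAN7 IgA, beside 0.00 for all genes in both comparisons. The libraries of 6 of 6 genes did not overlap between either antibody and untreated cells, as was so for 24.8% of all genes with BDNF IgA and 28.4% with TSPAN7 IgA. Of all genes tested, 4.49% were called higher and 3.18% lower with BDNF IgA (edgeR adjusted p under 0.05), and 4.46% and 4.08% with TSPAN7 IgA, and nothing is read from this background because these contrasts were known when the genes were chosen.

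In the comparisons that were tested, few members passed. Against IgG, 1 of 6 members was higher with non-specific IgA, where 12.6% of all genes were higher, and 1 of 6 was lower, where 11.6% were lower. Against untreated cells the counts were the same, 1 higher beside 12.9% of all genes and 1 lower beside 12.1%. With library size alone as the scaling, the split of all genes moved to 873 higher and 3631 lower against IgG, from 2265 and 2095, and to 1001 and 3296 against untreated cells, from 2316 and 2187. The median of the members was 0.12 and 0.16 on the log2 scale, and that of all genes -0.01 in both. IgG against untreated cells gave 0 of 6 members and 0% of all genes in each direction by the edgeR quasi-likelihood test. At an unadjusted p under 0.05 that test gave 89 genes and 0 members, and DESeq2 and limma called 0 members. Those 89 genes are far below a share of 0.05 of the 18012 tested, the share that no effect at all would give. The edgeR test was thus conservative in this comparison, and its counts of 0 do not show that IgG had no effect. TSPAN7 IgA against BDNF IgA gave 0 of 6 members higher (also 0 by DESeq2 and at an unadjusted p under 0.05) beside 3.42% of all genes and 1 of 6 lower beside 4.5%. In the IgA comparisons 1 in 6 genes is near the background, and between the specific antibodies the count rests on 1 gene, so nothing particular to the members is read from these counts.

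**Figure D1:**
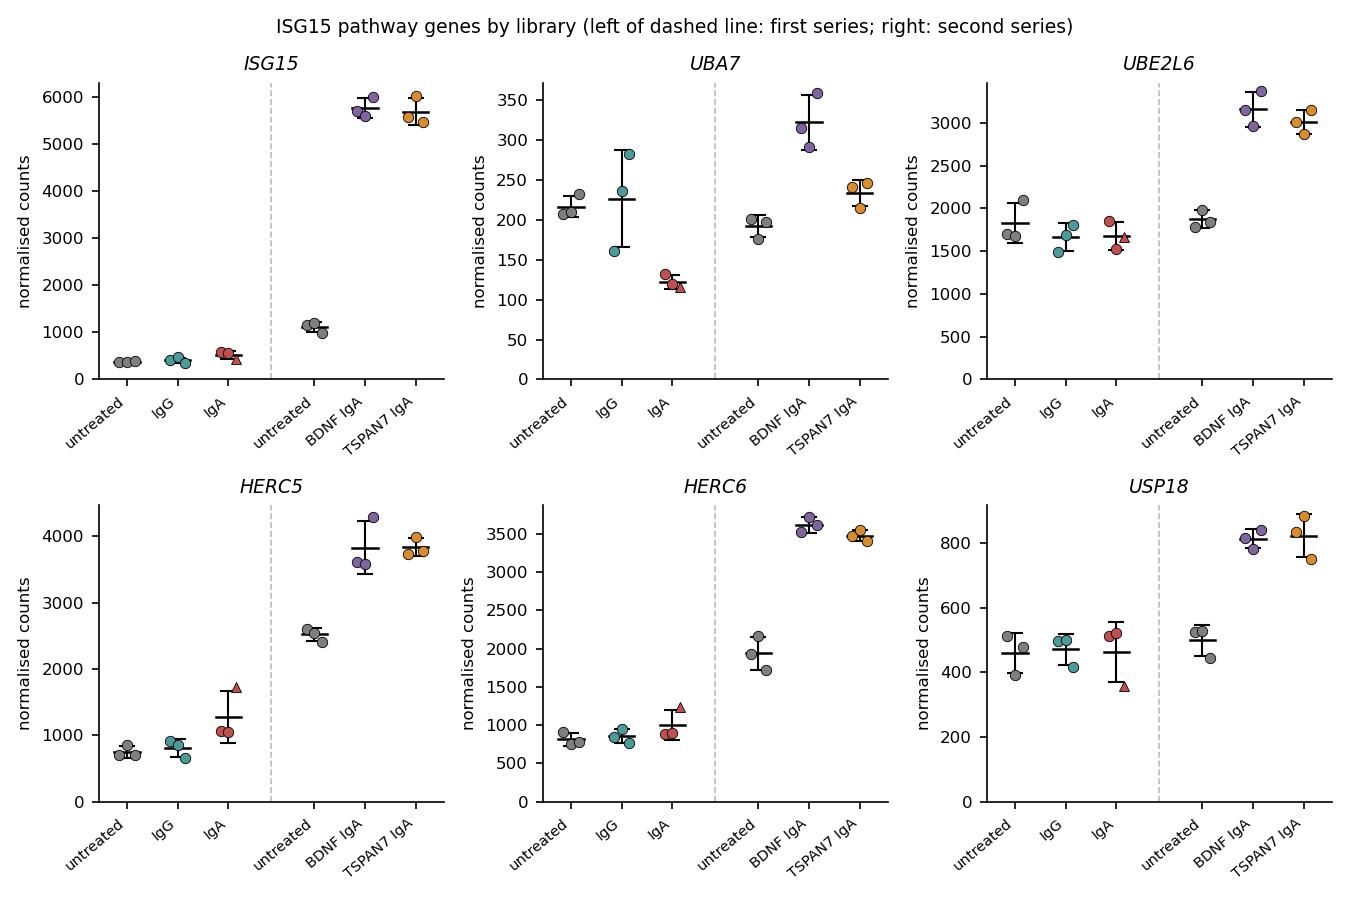
Normalised counts of the 6 genes (vertical axes, from 0) in each library of the 6 groups, with the mean (bar) and SD (whiskers) of 3 libraries; triangles mark IgA replicate 3, and values left and right of the dashed line are on separate scales. ISG15 lies between 5478.1 and 6024.7 in the 6 libraries with BDNF IgA or TSPAN7 IgA and at most at 1195.6 without, and UBA7 is lowest in the 3 libraries with non-specific IgA.

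ISG15, the modifier itself, had the largest fold change of the 6 genes with both specific antibodies. Its normalised counts were 1150.8, 1195.6 and 992.4 in untreated cells, 5706, 5595.6 and 6006.5 with BDNF IgA, and 5584.3, 6024.7 and 5478.1 with TSPAN7 IgA. The treated libraries lay close together and far above the untreated ones. The log2 fold change was 2.38 (SE 0.06) with BDNF IgA and 2.36 (SE 0.06) with TSPAN7 IgA, or 5.19-fold and 5.12-fold. Counted from the largest, these were ranks 5 and 4 of 18732 genes. Between the antibodies ISG15 differed by -0.02 (95% interval -0.13 to 0.10, edgeR adjusted p 0.888), so a difference beyond these bounds was not found at this depth.

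Non-specific IgA gave ISG15 a smaller fold change, whose call turned on the tool and on 1 library. Normalised counts were 373.8, 369.9 and 401.2 in untreated cells, 407.9, 467.1 and 359 with IgG, and 588.6, 552.6 and 424.9 with IgA. The IgA libraries all lay above the untreated ones but overlapped with IgG through IgA replicate 3, the lowest of the 3. The log2 fold change was 0.45 (SE 0.16) against untreated cells and 0.35 (SE 0.16) against IgG, and neither passed (edgeR adjusted p 0.0527 and 0.131), although DESeq2 and limma voom called it against untreated cells (adjusted p 0.0431 and 0.0256). Without IgA replicate 3 they were 0.58 (edgeR adjusted p 0.00906) and 0.47 (0.0269), both past the threshold. IgG against untreated cells gave 0.11 (95% interval -0.24 to 0.45).

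UBA7, the E1 enzyme that starts the conjugation chain, fell with non-specific IgA. In the first series its normalised counts were 207.7, 210.2 and 232 in untreated cells, 161.5, 236.7 and 282.2 with IgG, and 132.3, 119.9 and 115.3 with IgA. Every IgA library was below every IgG and untreated library, while IgG straddled untreated cells. UBA7 fell by 0.88 on the log2 scale against IgG (SE 0.22, edgeR adjusted p 0.0107) and by 0.82 against untreated cells (SE 0.22, edgeR adjusted p 0.0151), that is, to 0.542 and 0.566 of the level. Its direction was the same in all 19 alternatives of each comparison, the change without IgA replicate 3 was -0.85 and -0.78, and the call was lost against IgG without IgG replicate 3 (-0.70, edgeR adjusted p 0.0554) and against untreated cells without untreated replicate 3 (-0.77, edgeR adjusted p 0.0594), and in both with limma voom (adjusted p 0.0577 and 0.0684).

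In the second series UBA7 was higher with the specific antibodies than in untreated cells, and more so with BDNF IgA. Its normalised counts were 201.6, 176 and 197.8 in untreated cells, 315.3, 291.7 and 359.3 with BDNF IgA, and 240.7, 215 and 245.8 with TSPAN7 IgA. The 3 groups formed separate ranges in that order, with TSPAN7 IgA between the others. The log2 fold change against untreated cells was 0.75 (SE 0.11) with BDNF IgA and 0.29 (SE 0.12) with TSPAN7 IgA. TSPAN7 IgA against BDNF IgA gave -0.46 (SE 0.11, 95% interval -0.69 to -0.23, edgeR adjusted p 0.0127), and UBA7 was the 1 member for which the antibodies differed past the threshold. The call was lost without BDNF IgA replicate 3 (-0.38, edgeR adjusted p 0.113) and without TSPAN7 IgA replicate 2 (-0.41, edgeR adjusted p 0.0924), with the direction the same.

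**Figure D2:**
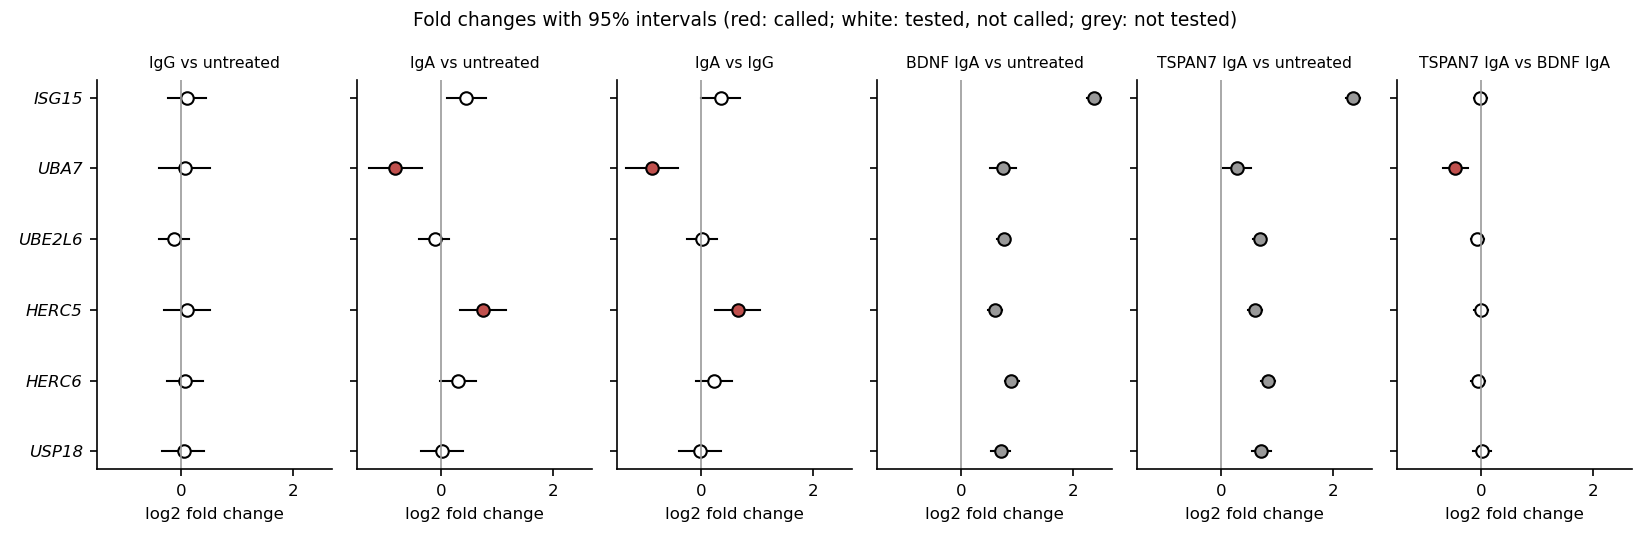
Log2 fold changes (horizontal axes) of the 6 genes in the 6 comparisons, with 95% intervals as lines; red points passed the edgeR test, white points were tested and did not pass, and grey points are descriptions with no test. UBA7 lies at -0.88 and -0.82 with non-specific IgA and at 0.75 and 0.29 with the specific antibodies, and ISG15 reaches 2.38.

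UBE2L6, the E2 that takes ISG15 from UBA7, was higher with the specific antibodies and did not pass the test in the first series. Its normalised counts were 1785.9, 1986.6 and 1845.8 in untreated cells, 3145.5, 2964.6 and 3372 with BDNF IgA, and 3007.9, 2874.3 and 3152.6 with TSPAN7 IgA. The treated libraries were all above the untreated ones, and the antibodies overlapped each other. The log2 fold change against untreated cells was 0.76 (SE 0.06) and 0.69 (SE 0.06), and TSPAN7 IgA differed from BDNF IgA by -0.07 (95% interval -0.19 to 0.05, edgeR adjusted p 0.502). In the first series UBE2L6 had 1681.5 to 2094.7 normalised counts in untreated cells, 1485.8 to 1811.7 with IgG and 1521.9 to 1847.8 with IgA, ranges that overlap throughout. IgA differed from IgG by 0.01 (95% interval -0.25 to 0.28) and from untreated cells by -0.12 (95% interval -0.39 to 0.14), with edgeR adjusted p of 0.955 and 0.505.

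HERC5, the ligase, was the member that rose with non-specific IgA. Its normalised counts were 709.1, 860.9 and 699.3 in untreated cells, 914.7, 849.5 and 665.4 with IgG, and 1059.5, 1044.3 and 1723.4 with IgA. All IgA libraries were above all others, with replicate 3 far above its fellows. HERC5 rose by 0.65 on the log2 scale against IgG (SE 0.19, edgeR adjusted p 0.0255) and by 0.75 against untreated cells (SE 0.19, edgeR adjusted p 0.0127). Without IgA replicate 3, the library with the high mitochondrial share, the change was 0.37 against IgG (edgeR adjusted p 0.0665) and 0.47 against untreated cells, where it still passed. With scaling by library size alone, which moved the median of all genes to -0.25 against IgG, HERC5 was at 0.39 (edgeR adjusted p 0.111). The call against IgG was also lost with limma voom (0.42, adjusted p 0.0546), with only the 6 libraries compared (edgeR adjusted p 0.0562) and without IgG replicate 2 or IgG replicate 3 (0.68 and 0.52), and the call against untreated cells without untreated replicate 1 or 3. The part of the mitochondrial share in this result was not tested.

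With the specific antibodies HERC5 was above untreated cells in every library. Its normalised counts were 2608.5, 2549 and 2409.3 in untreated cells, 3612.3, 3589.9 and 4288.2 with BDNF IgA, and 3735.9, 3995.7 and 3781.6 with TSPAN7 IgA. The highest single library was BDNF IgA replicate 3, and no treated library came near the untreated range. The log2 fold change was 0.60 (SE 0.06) and 0.61 (SE 0.06), the smallest of the 6 genes with BDNF IgA, and the antibodies differed by 0.00 (95% interval -0.12 to 0.13).

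HERC6, the neighbour of HERC5, followed it with the specific antibodies and less clearly with non-specific IgA. In the second series its normalised counts were 1930.8, 2158.5 and 1720.3 in untreated cells, 3518.4, 3722.7 and 3612.5 with BDNF IgA, and 3471.2, 3546.7 and 3406 with TSPAN7 IgA. The log2 fold change was 0.90 (SE 0.06) and 0.84 (SE 0.06), second among the members to ISG15 with each antibody, and the antibodies differed by -0.06 (95% interval -0.18 to 0.07, edgeR adjusted p 0.62). In the first series the counts were 908.5, 760 and 774.2 in untreated cells, 850.3, 948.7 and 762 with IgG, and 884.6, 892.4 and 1232.1 with IgA. Only IgA replicate 3 was outside the range of the other groups, the same library in which HERC5 was highest. IgA differed from IgG by 0.23 (95% interval -0.09 to 0.55, edgeR adjusted p 0.284) and from untreated cells by 0.30 (95% interval -0.02 to 0.62, edgeR adjusted p 0.162), and by 0.05 and 0.13 without replicate 3.

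USP18, the deconjugating protease, was higher with both specific antibodies and passed no test in the first series. Its normalised counts in the first series were 511.9, 391 and 477.7 in untreated cells, 497.5, 500.8 and 416.1 with IgG, and 512.4, 520.6 and 357 with IgA. The groups overlapped, and IgA replicate 3 was the lowest of the 9 libraries. IgA differed from IgG by -0.02 (95% interval -0.40 to 0.35) and from untreated cells by 0.01 (95% interval -0.36 to 0.39), so a change within these bounds cannot be told from none. In the second series the counts were 523.7, 529 and 443.4 in untreated cells, 813.4, 782.1 and 841.1 with BDNF IgA, and 834.8, 882.2 and 749.2 with TSPAN7 IgA. Treated and untreated ranges were apart and the antibodies overlapped, with log2 fold changes of 0.71 (SE 0.08) and 0.72 (SE 0.08) against untreated cells and a difference of 0.02 (95% interval -0.15 to 0.18, edgeR adjusted p 0.926). USP41, a near-identical copy of USP18 on the same chromosome, had at most 5 counts in any library. Reads common to the pair are dropped when only unique alignments are counted, so the level of USP18 is uncertain.

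**Figure D3:**
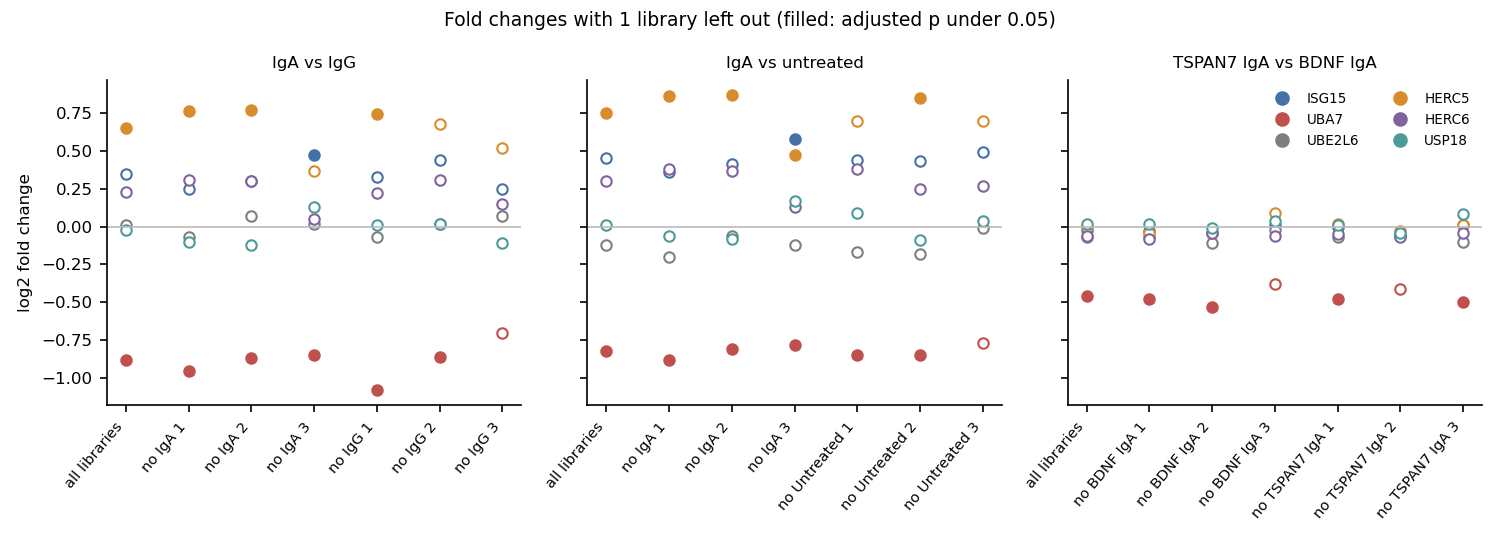
Log2 fold changes (vertical axis) of the 6 genes with all libraries and with 1 library of the groups compared left out (horizontal axis), in the 3 tested comparisons in which any member passed; filled points have an edgeR adjusted p under 0.05. HERC5 falls to 0.37 and 0.47 and ISG15 rises to 0.47 and 0.58 without IgA replicate 3, while UBA7 stays between -1.08 and -0.70 with non-specific IgA.

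Levels of different genes were compared as CPM per kilobase of the reference transcript (CPM per kb). In untreated cells of the first series UBE2L6 was highest at 42.5 ± 5.43 CPM per kb (SD, n = 3), then ISG15 at 17 ± 0.753, and UBA7 was lowest at 1.86 ± 0.115. Between them USP18, HERC6 and HERC5 had 7.03 ± 0.952, 6.12 ± 0.616 and 6.11 ± 0.733 CPM per kb, with ranges that overlap, so their order is not resolved. With non-specific IgA HERC5 reached 10.3 ± 3.13 CPM per kb, with a range of 8.44 to 13.9 whose top was IgA replicate 3. The range of HERC6, 6.65 to 9.26, overlapped with that of HERC5 and with that of USP18. UBA7, the first enzyme of the chain, was thus also the one with the lowest level in all 6 groups.

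In the second series ISG15 was a little above UBE2L6 in untreated cells and far above it with the antibodies. Untreated cells had 41.2 ± 3.95 CPM per kb of ISG15 and 36.2 ± 1.99 of UBE2L6, with ranges of 36.8 to 44.3 and 34.6 to 38.4 that overlap. As shares of the summed level of the 6 genes in each library, the ranges were 34.5% to 37.1% and 30.1% to 33.6%, which do not overlap. With BDNF IgA the values were 214 ± 7.88 and 61.2 ± 3.95, and with TSPAN7 IgA 211 ± 10.7 and 58.3 ± 2.7. ISG15 thereby went from 36.0% ± 1.35 of the summed level of the 6 genes to 63.6% ± 0.445 with BDNF IgA and 64.1% ± 1.28 with TSPAN7 IgA. The order below ISG15 and UBE2L6 was HERC5, HERC6, USP18 and UBA7 in all 3 groups, with ranges that did not overlap.

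**Figure D4:**
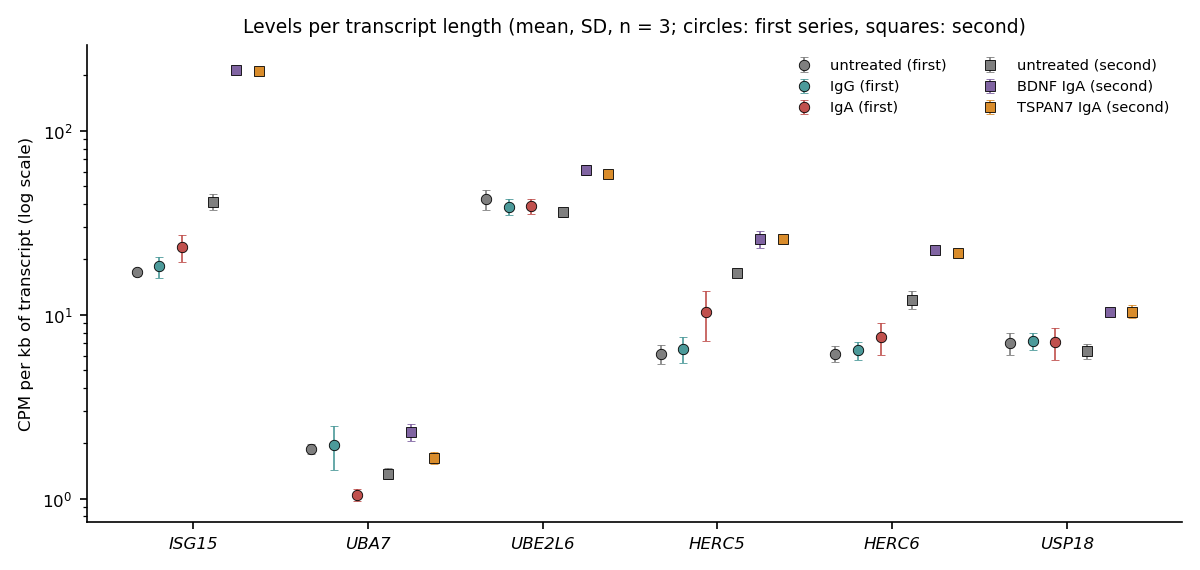
Levels of the 6 genes per transcript length, in CPM per kb on a log axis, as the mean and SD of 3 libraries; circles are the first series and squares the second. ISG15 exceeds 200 with BDNF IgA and TSPAN7 IgA, where UBE2L6 is near 60, and UBA7 is lowest in every group.

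Other genes of ISG15 biology were counted from a list of ligases, proteases and the ISG15 receptor, written from textbook roles. Of its 9 genes 8 were tested, and ITGAL, the partner of ITGB2 in the LFA-1 receptor for free ISG15, had at most 5 counts. TRIM25, a ubiquitin ligase of the RIG-I pathway that can also attach ISG15 and is itself induced by interferon, was at 0.22 (SE 0.04) with BDNF IgA and 0.25 (SE 0.04) with TSPAN7 IgA against untreated cells, values given with no test. The list's median there was 0.06 and 0.07, beside 0.00 for all genes. With non-specific IgA 1 of the 8 genes was higher and 3 were lower against IgG, where 12.6% and 11.6% of all genes were. Against untreated cells 1 was higher and 2 were lower, where 12.9% and 12.1% of all genes were. With so few genes, nothing particular to the list is read from these counts. TRIM25 fell by 0.41 on the log2 scale against IgG (edgeR adjusted p 0.0478) and by 0.41 against untreated cells (edgeR adjusted p 0.0491). Its change was -0.60 and -0.59 without IgA replicate 3, and both calls were lost when any other library was left out, with changes from -0.44 to -0.25. The protease USP2 also fell with non-specific IgA, by 0.93 against IgG and by 1.10 against untreated cells (edgeR adjusted p 0.0124 and 0.00485). ITGB2 rose by 0.96 and 0.98 (edgeR adjusted p 0.0314 and 0.0272), and both calls were lost without IgA replicate 1 or 3 (0.74 and 0.77 without the latter) and without any 1 untreated library in the comparison with those. USP21 fell by 0.42 against IgG (edgeR adjusted p 0.0245), a call that was lost without IgA replicate 1 or any 1 IgG library. Without IgG replicate 3 all 4 calls against IgG were lost, with USP2 at -0.86 (edgeR adjusted p 0.0504) and ITGB2 at 0.70 (edgeR adjusted p 0.118), and ITGB2 was also lost there without IgG replicate 2. In TSPAN7 IgA against BDNF IgA edgeR called 0 of the 8 genes (1 at an unadjusted p under 0.05) and DESeq2 called 1. Of all genes, edgeR called 3.42% higher and 4.5% lower there.

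Relatives of the members that handle ubiquitin in place of ISG15 lay close to 0 with the specific antibodies. The 9 genes with enough counts ranged on the log2 scale from -0.15 (HERC1) to 0.07 (HERC4) with BDNF IgA and from -0.11 (UBA1, the ubiquitin E1) to 0.12 (HERC3) with TSPAN7 IgA against untreated cells, and UBE2L3, the relative of UBE2L6, was at -0.14 and -0.01. Their median was -0.06 and -0.01, beside 0.00 for all genes, with no test. TSPAN7 IgA was above BDNF IgA for HERC3 (0.25, edgeR adjusted p 0.0419), a call that was lost in 7 of 9 fits with 1 library left out (for example 0.20 without BDNF IgA replicate 3). With non-specific IgA 2 of the 9 genes were higher against IgG and against untreated cells, where 12.6% and 12.9% of all genes were. HERC3, which follows HERC5 on chromosome 4 (89513585 to 89629692), rose by 0.90 and 0.91 (edgeR adjusted p 0.0312 and 0.0289), and HERC4 rose by 0.38 in both (0.0181 and 0.0181). Without IgA replicate 3 HERC3 no longer passed, at 0.51 and 0.52, and HERC1 and HERC2 were lower and called, HERC1 by -0.54 and -0.50. HERC3 was also lost with a replicate block (0.87 in both), without any 1 IgG library against IgG, and without untreated replicate 2 or 3 against untreated cells. HERC4 was at 0.14 and 0.16 with library size alone, where it did not pass, and its calls were lost without IgG replicate 2 or 3 and without untreated replicate 1 or 3. Which HERC genes passed with non-specific IgA thus depended on single libraries.

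STAT2 and IRF9, transcription factors of the interferon response that interferon also induces, were higher with the specific antibodies. Of the interferon genes listed, IFNE alone had more than 7 counts in any library, with 76 to 134 in the second series. Against untreated cells STAT2 was at 0.53 and 0.27 on the log2 scale, IRF9 at 1.12 and 0.95, and IFNAR1, a receptor subunit, at -0.10 and -0.26 with BDNF IgA and TSPAN7 IgA, values given with no test. IRF9 rested on 54 to 184 counts and overlaps another protein-coding gene annotated on the same strand, with which reads could be shared or lost. Between the antibodies, TSPAN7 IgA was below BDNF IgA for STAT2 (-0.26, SE 0.07, edgeR adjusted p 0.0249) and IFNAR1 (-0.16, SE 0.05, edgeR adjusted p 0.0417). The STAT2 call was lost without BDNF IgA replicate 3 (-0.17, edgeR adjusted p 0.204) and without TSPAN7 IgA replicate 2 or 3, and the IFNAR1 call in 6 of 9 fits with 1 library left out (for example -0.14 without BDNF IgA replicate 3). With non-specific IgA IFNAR1 fell by 0.41 against untreated cells (edgeR adjusted p 0.0242) and by 0.36 against IgG (edgeR adjusted p 0.0414). The first call was lost without any 1 untreated library, and the second in 8 of 9 fits with 1 library left out, at -0.24 without IgA replicate 3 (edgeR adjusted p 0.081). The kinase JAK1 rose by 0.39 and 0.35 (edgeR adjusted p 0.0136 and 0.024), calls that were lost with library size alone (0.17 and 0.11), without untreated replicate 1 or 2 against untreated cells, and without any 1 IgG library against IgG. STAT2 did not pass with non-specific IgA (-0.32 against untreated cells and -0.33 against IgG), but was at -0.55 in both without IgA replicate 3 (edgeR adjusted p 0.00163 and 0.00168). The 6 type I and III interferon genes listed did not include the IFNA genes. Of the 6, IFNE alone was tested, and it was called in 0 of 6 comparisons by edgeR and DESeq2. Its unadjusted p was under 0.05 in IgA against untreated cells alone (-1.80, edgeR adjusted p 0.115). Without IgA replicate 2 IFNE was lower and called, at -3.36 against untreated cells and -3.25 against IgG (edgeR adjusted p 0.019 and 0.0224), and it was also called with no filter on low counts (-1.82 and -1.71). Its counts in the first series ran from 0 to 82, and its normalised counts with IgA from 0 to 24.98, so these changes rest on few counts. IFNB1, IFNK and IFNL1 to IFNL3 had at most 7 counts in any library.

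The genes whose log2 CPM was most like that of a member differed between the series. In the second series the 3 closest genes to ISG15 over the 9 libraries were IFIT5, OAS3 and MX1 (Pearson r 0.998, 0.998 and 0.997), and UBE2L6 was closest to BST2 (0.992), USP18 to ZNFX1 (0.994) and HERC5 to IFIH1 (0.987). UBA7 was closest to PREX2, GBP5 and LCA5 (0.991, 0.989 and 0.982). In the first series ISG15 was closest to SYNGR2 (0.973), UBA7 to RNF150 (0.982), UBE2L6 to USF2 (0.956), HERC5 to PINK1 (0.994), HERC6 to SLC16A7 (0.953) and USP18 to AC022210.2 (0.917), and 0 of the 18 genes closest to the members there were among those closest in the second series. These r values describe 9 libraries that share 3 treatments, with no test. Among the members themselves r ran from 0.70 to 0.99 in the second series, lowest for UBA7 with USP18. In the first it ran from -0.86 (UBA7 with HERC5) to 0.83 (HERC5 with HERC6). IgA replicate 3 was the highest of the 9 first-series libraries for HERC5 (1723.4 normalised counts) and HERC6 (1232.1). No r was computed without that library, so first-series r values of HERC5 and HERC6, that of HERC5 with PINK1 included, may rest on it.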

How the data were processed

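RNA of OVCAR3 cells was sequenced in 18 libraries, grouped by the sample titles. The deposited values are raw read counts per gene symbol, with no normalisation. Per the methods, the authors used cutadapt (version 1.8.1) for trimming, STAR with GRCh37 for alignment of the paired-end reads and featureCounts for uniquely mapped ones. The labels also name HTSeq (version 0.6.1), and use of strand in the counting is not given in the sources used here. Of the rows of the second series, 2055 exact duplicates were dropped, which held 1.99% to 2.46% of the counts of a library. Replicates differed by more than sampling noise (chi-square per degree of freedom 3.91 to 232), so each was counted as 1 sample.

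Each series was fitted once with its 9 libraries in edgeR 4.0.16 (R 4.3.3; TMM, filterByExpr, quasi-likelihood F test, two-sided), and p-values were adjusted over all genes tested by Benjamini-Hochberg. Calls were made at an adjusted p under 0.05. The SE of a log2 fold change was its size over the root of F. The members and lists were chosen with earlier results of these data known. Named genes were the members, the lists, the markers and, per member and series, the 3 genes with the highest Pearson r of log2 CPM (prior count 2) among genes with a mean of at least 50 normalised counts. Some results of the lists and of the closest genes are not reported here. Lengths are of the MANE transcripts. There were no molecular identifiers, so counts are not independent molecules. The alternatives were DESeq2 1.42.0, limma 3.58.1 (voom with sample weights), other scalings and filters, a stricter threshold, a replicate block, only the 6 libraries compared, and leaving out each library. The fit was run on simulated counts with planted changes larger than that of any member in the first series. The simulation held no library like IgA replicate 3, so it checks the code and not these results.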

Additional observations from a re-analysis of the deposited data

Results flagged for a closer look

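UBA7 lay on opposite sides of untreated cells in the 2 series. Its log2 fold change against untreated cells was -0.82 with non-specific IgA, 0.75 with BDNF IgA and 0.29 with TSPAN7 IgA. All 3 libraries treated with non-specific IgA were below all untreated libraries of their series, and all 6 libraries treated with the specific antibodies were above theirs. The difference between the series was not tested, since the tables are compared only within themselves, and the antibody and the series cannot be told apart. No explanation was tested.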

How the results depend on the processing

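The members called numbered 2 in IgA against IgG, 2 in IgA against untreated cells and 1 in TSPAN7 IgA against BDNF IgA. The first became 0 with limma voom, 1 with library size alone, 1 with only the 6 libraries compared, and 0 to 2 with 1 library left out. The second ranged from 0 to 3 and the third from 0 to 1 with 1 library left out, and an adjusted p under 0.01 gave 0 in each. The median of the members in TSPAN7 IgA against untreated cells ranged from 0.66 to 0.75 with 1 library left out. Of 456 values of single members in tested comparisons under the alternatives, 20 reversed, and the cause was not tested. With library size alone, which moved the median of all genes to -0.25 and -0.22, UBE2L6 was -0.22 and HERC6 -0.02 against IgG and USP18 -0.18 against untreated cells, and with at least 10 counts in every library UBE2L6 was -0.01 against IgG. With 1 library left out the signs turned for UBE2L6 (-0.07 to 0.07) and USP18 (-0.12 to 0.13) in IgA against IgG, USP18 in IgA against untreated cells (-0.09 to 0.17), UBA7 (-0.12 to 0.26), HERC6 (-0.01 to 0.16) and USP18 (-0.07 to 0.12) in IgG against untreated cells, and ISG15 (-0.06 to 0.01) and USP18 (-0.04 to 0.08) in TSPAN7 IgA against BDNF IgA. The direction of UBA7 held in all alternatives of the 3 comparisons that called it. Replicate numbers gave no clear pairing of the samples, with same-number correlations of -0.07 to 0.25 and -0.02 to 0.09. Among 3 candidates the own number was best in 6 of 18 and 10 of 18 cases, which leaves a weak pairing in the second series uncertain. A replicate block gave 2, 2 and 1 members called, with 949 genes higher with BDNF IgA in place of 841. Over the alternatives the genes called higher and lower numbered 873 to 2520 and 927 to 3631 in IgA against IgG, 1001 to 2512 and 964 to 3296 in IgA against untreated cells, 403 to 1505 and 235 to 1293 with BDNF IgA (841 and 596 in the main setting), 429 to 1270 and 328 to 1172 with TSPAN7 IgA (836 and 764), and 196 to 1554 and 286 to 1722 between them (641 and 843). The depth limits UBA7, with 73 to 378 counts per library, most.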
